A study of Mus musculus with 12 samples.

Results

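A set of 10 genes compiled as markers of neutrophils and granulocyte precursors was followed in the livers of 12 female mice. The genes were picked by symbol from the 22557 genes of the deposited table: S100a8, S100a9, Mmp9, Clec4e, Csf3r, Retnlg, Ngp, Prtn3, Chil3 and Ltf. The 10 were chosen with earlier results of these libraries known, including their differences with tumour and genotype, so those differences are given below as a description, with no test. RNA sequencing was done on total RNA of whole liver, snap frozen, ground and depleted of ribosomal RNA. Each of 4 groups held 3 libraries from different mice: Mtdh KO mice bearing a Py8119 mammary tumour (KO_tumor), WT mice bearing that tumour (WT_tumor), Mtdh KO mice with no tumour (KO_no_tumor) and WT mice with no tumour (WT_no_tumor). Py8119 cells form mammary tumours in mice, and Mtdh encodes metadherin, a protein studied in tumour growth and spread. All mice were age-matched females per the series' design text. The sources used here do not state the age, the strain, the tissues in which Mtdh was deleted or the time of tumour growth.

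Neutrophils are short-lived phagocytes made in bone marrow, and at times in spleen and liver, under the cytokine G-CSF. Their granules fill in a set order as precursors mature. Primary granule proteases such as proteinase 3 come first, secondary granule proteins such as lactoferrin follow, gelatinase comes later, and the cytosolic pair S100A8 and S100A9 is abundant in mature cells. Neutrophils are sparse in healthy liver, and tumours at distant sites are known to raise their number in blood in mouse models. In whole liver, more cells of a type and more RNA per cell cannot be told apart.

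Values are a normalized signal, which the table's naming gives as DESeq2-normalized, and are listed in the order of replicates 1, 2 and 3. From the most frequent low value, 1 read was worth 0.65 to 1.32 in 11 libraries, at an estimated depth of 25700000 to 43000000 reads. It was worth 2.47 in KO_tumor replicate 1, the shallowest library at 12700000 reads. KO_no_tumor replicate 3 also stood apart, with 4.84% of its signal in small nucleolar RNAs against at most 1.23% in the others. Mtdh signal lay between 323 and 1063 in KO_tumor livers and between 3954 and 5702 in WT_tumor livers, and between 436 and 627 in KO_no_tumor livers and between 4330 and 5375 in WT_no_tumor livers. Albumin (Alb), the main secreted product of hepatocytes, had a signal of at least 2070000 in every library.

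Many values of the 10 genes were near the limit of detection. Of their 120 values, 31 were listed at 0 and 64 were under 10. The values at 0 numbered 10 of 30 in KO_tumor, 1 of 30 in WT_tumor, 9 of 30 in KO_no_tumor and 11 of 30 in WT_no_tumor livers. A count of 0 allows up to 3 reads by counting error alone, worth 7.40 in the shallowest library and 1.95 to 3.95 in the rest.

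The bases before the transcription start are shown for S100a8, Prtn3 and Chil3, the 3 genes of the set whose WT_tumor values all lay above the other 9 libraries (as did those of 2.08% of tested genes), and for Clec4e, whose livers with and without a tumour did not overlap in either genotype, those with a tumour being lower in KO and higher in WT. Each run is the 250 bases upstream of the start, 5′ to 3′ on the gene's strand, from RefSeq on GRCm38.p6. Capitals mark matches on either strand to GAGGAA, a core recognised by PU.1, or to TTGCNNAA, a form of the C/EBP site. PU.1 and C/EBP proteins are transcription factors of the myeloid lineage. The windows are chr3:90668821-90669070 (plus strand) for S100a8, chr10:79879417-79879666 (plus strand) for Prtn3, chr3:106167565-106167814 (minus strand) for Chil3 and chr6:123289872-123290121 (minus strand) for Clec4e.
S100a8: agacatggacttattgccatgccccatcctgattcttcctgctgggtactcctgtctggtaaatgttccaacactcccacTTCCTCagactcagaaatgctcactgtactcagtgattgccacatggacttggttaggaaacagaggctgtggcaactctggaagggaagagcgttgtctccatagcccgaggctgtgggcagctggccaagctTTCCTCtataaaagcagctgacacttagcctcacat
Prtn3: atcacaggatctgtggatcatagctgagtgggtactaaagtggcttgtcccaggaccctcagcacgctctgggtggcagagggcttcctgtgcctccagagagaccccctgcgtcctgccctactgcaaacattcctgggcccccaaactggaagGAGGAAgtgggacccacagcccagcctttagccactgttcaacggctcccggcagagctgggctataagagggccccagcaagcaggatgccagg
Chil3: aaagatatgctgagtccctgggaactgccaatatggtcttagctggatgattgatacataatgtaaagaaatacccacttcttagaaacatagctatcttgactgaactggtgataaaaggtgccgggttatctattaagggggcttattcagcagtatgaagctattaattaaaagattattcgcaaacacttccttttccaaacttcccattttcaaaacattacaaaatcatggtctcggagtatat
Clec4e: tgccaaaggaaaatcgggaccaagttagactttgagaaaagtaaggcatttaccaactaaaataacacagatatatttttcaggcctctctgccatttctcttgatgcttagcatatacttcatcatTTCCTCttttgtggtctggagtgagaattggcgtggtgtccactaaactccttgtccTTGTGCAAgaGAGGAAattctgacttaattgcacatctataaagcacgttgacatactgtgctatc
An entry in the promoter table was matched for 9 of the 10 genes, all but Mmp9. TTGCNNAA was found in 5 of these 9 windows, against 9.55% of 27025 windows of the same length, and GAGGAA in 5 of 9, against 23.1%. Retnlg was among the 5 with TTGCNNAA, but bases just after its start were not found in the transcripts used to check it. S100a8 held 2 matches to GAGGAA, Prtn3 held 1, Clec4e held 2 together with 1 match to TTGCNNAA, and Chil3 held neither. These matches describe letters only, and no binding was measured.

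**Figure D1:**
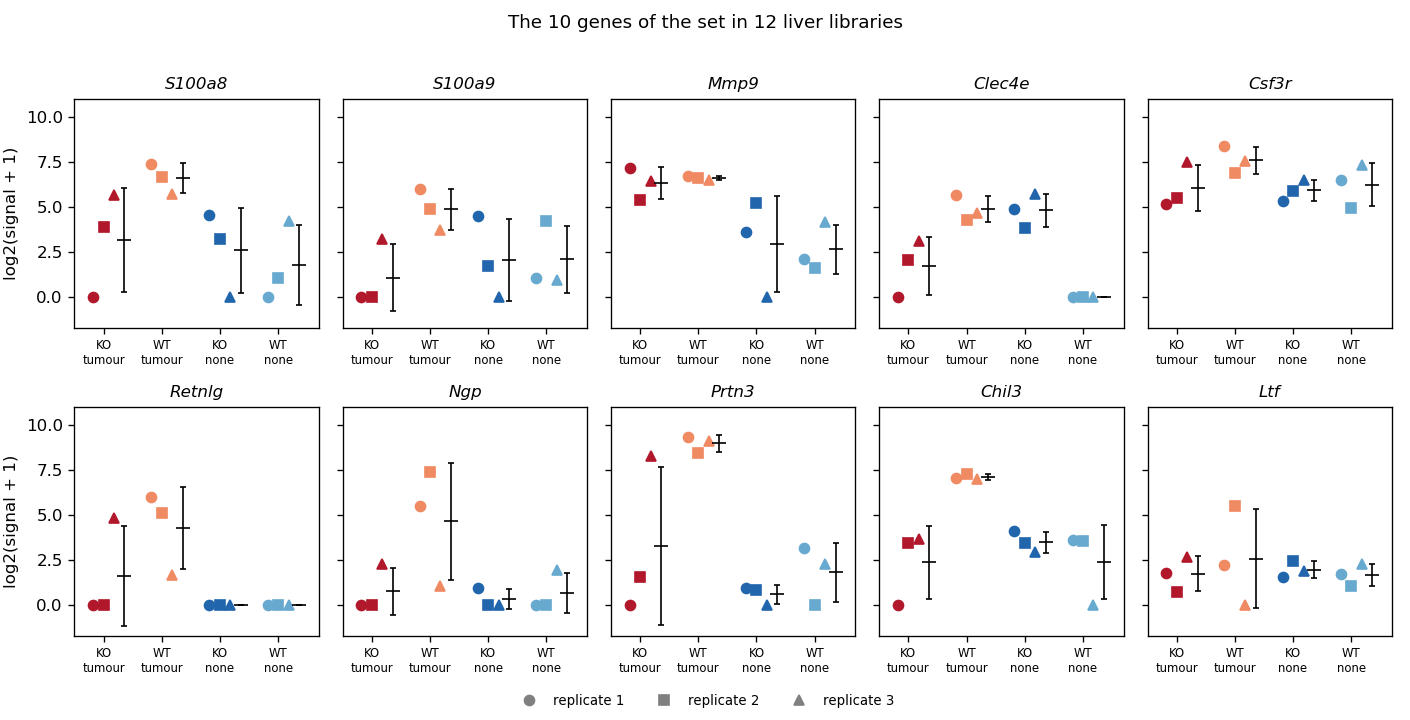
Normalized signal of the 10 genes of the set as log2(signal + 1) on the vertical axis, by group on the horizontal axis, with 1 point per library (the symbol gives the replicate) and the mean ± SD of 3 libraries beside each group. WT_tumor points lie above all others for S100a8, Prtn3 and Chil3, and Clec4e is at 0 in all 3 WT_no_tumor livers.

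Prtn3 (ENSMUSG00000057729, chromosome 10, 79710310 to 79719009, plus strand on mm39) encodes proteinase 3, a serine protease loaded into primary granules by promyelocytes. It had the widest range of the set. Its signal was 0, 1.95 and 300.0 in KO_tumor livers, 644, 346 and 545 in WT_tumor livers, 0.945, 0.752 and 0 in KO_no_tumor livers, and 7.90, 0 and 3.79 in WT_no_tumor livers. All WT_tumor livers lay above the rest, while KO_tumor livers were split between replicate 3, close to the WT_tumor range, and a pair of livers near 0. In estimated reads these were 0, 3 and 390 in KO_tumor livers and 894, 480 and 492 in WT_tumor livers, against at most 7 in any liver without a tumour. Group means were 101 ± 173 in KO_tumor, 511 ± 152 in WT_tumor, 0.566 ± 0.499 in KO_no_tumor and 3.90 ± 3.95 in WT_no_tumor livers (SD, n = 3 each). On the log2(signal + 1) scale, which understates the change of low genes, the tumour difference was 2.68 ± 1.65 (SE) in KO livers and 7.15 ± 1.65 in WT livers. Prtn3 overlaps Plppr3, on the opposite strand, by 159 bases, and the use of strand in counting is not given, but Plppr3 signal did not exceed 15.8 in any library.

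Ngp and Ltf belong to the next step of maturation, the secondary granules, and both were low. Neutrophilic granule protein (Ngp, ENSMUSG00000032484, chromosome 9, 110248815 to 110252081) had a signal of 0, 0 and 3.85 in KO_tumor livers, 43.2, 162 and 1.11 in WT_tumor livers, 0.945, 0 and 0 in KO_no_tumor livers, and 0, 0 and 2.84 in WT_no_tumor livers. WT_tumor replicates 1 and 2 stood above every other liver, whereas WT_tumor replicate 3 held 1 estimated read. Ltf (ENSMUSG00000032496, chromosome 9, 110848339 to 110871836) encodes lactoferrin, an iron-binding antimicrobial protein. Its signal was 2.47, 0.650 and 5.39 in KO_tumor livers, 3.60, 43.2 and 0 in WT_tumor livers, 1.89, 4.51 and 2.63 in KO_no_tumor livers, and 2.26, 1.05 and 3.79 in WT_no_tumor livers. A single liver, WT_tumor replicate 2 with 60 estimated reads, exceeded 10, so the groups overlapped in every comparison. Neither gene reached a signal of 10 in 3 libraries, the filter used for tests across all genes, so 8 of the 10 passed it. A gene could pass through the group in which it was high.

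Mmp9 (ENSMUSG00000017737, chromosome 2, 164782700 to 164797771) encodes gelatinase B, a matrix metalloprotease of late granules that macrophages also make. It was the gene of the set in which KO_tumor and WT_tumor livers were most alike. Its signal was 143, 40.3 and 86.9 in KO_tumor livers, 105, 97.9 and 90.8 in WT_tumor livers, 11.3, 36.1 and 0 in KO_no_tumor livers, and 3.39, 2.10 and 17.0 in WT_no_tumor livers. Livers with a tumour lay above livers without one in both genotypes, by 3.39 ± 1.17 (SE, log2) in KO and 3.98 ± 1.17 in WT livers. KO_tumor and WT_tumor livers overlapped, with means of 90.1 ± 51.4 and 98.0 ± 7.21 (SD, n = 3 each). The highest value, in KO_tumor replicate 1, rested on 58 estimated reads.

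S100a8 and S100a9 encode the subunits of calprotectin, a complex of mature neutrophils and some monocytes that binds calcium and other metals. The genes are neighbours on chromosome 3, separated by 22596 bases on mm39, S100a8 (ENSMUSG00000056054) at 90576285 to 90577343 and S100a9 (ENSMUSG00000056071) at 90599939 to 90603029. S100a8 signal was 0, 13.7 and 50.0 in KO_tumor livers, 166, 99.4 and 52.0 in WT_tumor livers, 22.7, 8.27 and 0 in KO_no_tumor livers, and 0, 1.05 and 18.0 in WT_no_tumor livers. Every WT_tumor liver exceeded every other liver, though the lowest of them lay just above KO_tumor replicate 3. S100a9 signal was 0, 0 and 8.46 in KO_tumor livers, 63.4, 28.8 and 12.2 in WT_tumor livers, 21.7, 2.26 and 0 in KO_no_tumor livers, and 1.13, 17.9 and 0.947 in WT_no_tumor livers. KO_tumor livers lay below WT_tumor livers without overlap, whereas WT_tumor and WT_no_tumor livers overlapped. The tumour difference of S100a8 was 0.59 ± 1.58 (SE, log2) in KO and 4.83 ± 1.58 in WT livers, and that of S100a9 was −0.99 ± 1.45 in KO and 2.78 ± 1.45 in WT livers.

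Chil3 (ENSMUSG00000040809, chromosome 3, 106054870 to 106074881) encodes the chitinase-like protein Ym1, made in mice by neutrophil precursors, monocytes and alternatively activated macrophages. It gave the tightest separation of the set. Its signal was 0, 9.76 and 11.5 in KO_tumor livers, 129.7, 153 and 125 in WT_tumor livers, 16.1, 9.78 and 6.58 in KO_no_tumor livers, and 11.3, 10.5 and 0 in WT_no_tumor livers. The WT_tumor livers lay far above the other 9, which overlapped among themselves. Means were 7.10 ± 6.21 in KO_tumor, 136 ± 15.2 in WT_tumor, 10.8 ± 4.83 in KO_no_tumor and 7.27 ± 6.31 in WT_no_tumor livers (SD, n = 3 each). The KO to WT difference among livers with a tumour was −4.73 ± 1.20 (SE, log2).

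Csf3r and Retnlg are products of both maturing and mature neutrophils. Csf3r (ENSMUSG00000028859, chromosome 4, 125918343 to 125938234), the receptor for G-CSF, was the one gene of the set above 10 in all 12 libraries. Its signal was 34.5, 44.9 and 179 in KO_tumor livers, 331, 115 and 185 in WT_tumor livers, 39.7, 58.9 and 89.4 in KO_no_tumor livers, and 88.1, 29.5 and 160 in WT_no_tumor livers. The groups overlapped in every comparison, and the tumour difference was 0.14 ± 0.74 (SE, log2) in KO and 1.35 ± 0.74 in WT livers. Retnlg (ENSMUSG00000022651, chromosome 16, 48692984 to 48694860) encodes a resistin-like secreted protein of mouse granulocytes and was listed at 0 in all 6 livers without a tumour. With a tumour its signal was 0, 0 and 26.9 in KO and 61.2, 33.8 and 2.21 in WT livers. The tumour groups overlapped, since WT_tumor replicate 3 held 2 estimated reads and KO_tumor replicate 3 held 35.

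Clec4e (ENSMUSG00000030142, chromosome 6, 123258748 to 123266830) encodes Mincle, a receptor for microbial glycolipids and products of dying cells on neutrophils, monocytes and macrophages. Its signal was 0, 3.25 and 7.69 in KO_tumor livers, 49.7, 18.7 and 24.4 in WT_tumor livers, 28.4, 13.5 and 51.3 in KO_no_tumor livers, and 0 in all 3 WT_no_tumor livers. With a tumour all 3 KO livers lay below all 3 WT livers, and without a tumour all 3 KO livers lay above all 3 WT livers. The values rested on 0, 5 and 10 estimated reads in KO_tumor, 69, 26 and 22 in WT_tumor and 30, 18 and 39 in KO_no_tumor livers. The tumour difference in KO livers was −3.08 ± 1.07 (SE, log2), and no fold is given against the WT_no_tumor livers at 0, where 3 reads would be worth 2.84 to 3.39.

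**Figure D2:**
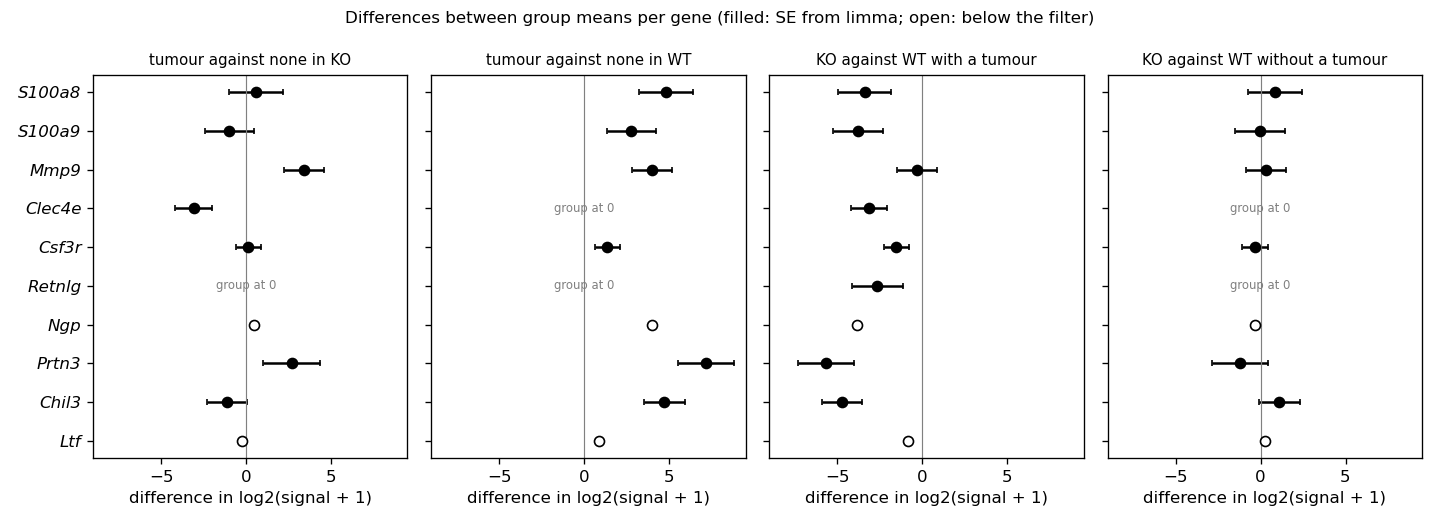
Log2 differences of the 10 genes on the log2(signal + 1) scale in 4 comparisons, 1 panel each, with limma standard errors as bars; open symbols mark Ngp and Ltf, which were below the filter and have no error, and "group at 0" marks a gene with no value against a group listed at 0. All 10 differences lie below 0 for KO against WT livers with a tumour, while those for tumour against none in KO livers lie on both sides of 0.

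Among WT livers, all 10 genes had a higher mean log2 value in WT_tumor than in WT_no_tumor livers. The median difference of the 10 was 4.12 on the log2(signal + 1) scale, or 3.98 over the 8 genes with no group at 0, and 2.03 with a pseudocount of 10, beside a median of 0.00 over all 17380 tested genes, of which 50.4% were positive. For 6 genes (S100a8, Mmp9, Clec4e, Retnlg, Prtn3 and Chil3) all 3 WT_tumor livers lay above all 3 WT_no_tumor livers, as did 9.46% of tested genes, and 0 lay wholly lower, as did 8.05%. With limma over all tested genes, 0 of the 8 passed a Benjamini-Hochberg adjusted p of 0.05 in either direction, beside 0.679% of all genes (118; 0.432% higher and 0.247% lower), and 6 of 8 were under an unadjusted p of 0.05, beside 8.67% of all genes. Because the genes were chosen from this contrast, these counts carry no test.

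Among KO livers the tumour difference was mixed, with 6 genes positive and 4 negative. The median was 0.29, or 0.14 over the 9 genes with no group at 0, beside −0.08 over all tested genes, of which 45.7% were positive. Mmp9 was the gene of the set higher in all 3 KO_tumor livers, as were 7.34% of tested genes, and Clec4e was the gene lower in all 3, as were 9.48%. With limma 0 of the 8 passed, and neither did any of the other tested genes (0%), while 2 of the 8 and 12.7% of all genes were under an unadjusted p of 0.05. The sign of the median rested on single libraries: it was 0.70 without KO_tumor replicate 1 and −0.62 without KO_tumor replicate 3.

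Between genotypes with a tumour, all 10 genes had a lower mean log2 value in KO than in WT livers. The median difference was −3.27, or −1.62 with a pseudocount of 10, beside −0.12 over all tested genes, of which 42.8% were positive. For S100a8, S100a9, Clec4e, Prtn3 and Chil3 all KO_tumor livers lay below all WT_tumor livers, as did 9.8% of tested genes, and 0 lay wholly higher, as did 8.11%. With limma 0 of 8 passed, beside 0.023% of all genes (4; 0.0115% higher and 0.0115% lower), and 5 of 8 were under an unadjusted p of 0.05, beside 14.4% of all genes. KO_tumor replicates moved this value in opposite directions, to −2.06 without replicate 1 and to −4.44 without replicate 3. Comparisons that share a group of livers are not independent of each other, so the WT_tumor values enter both this contrast and that of tumour in WT livers.

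Without a tumour, KO and WT livers differed by a median of 0.14, with 5 genes positive, 4 negative and Retnlg at 0 in both. Over the 8 genes with no group at 0 the median was 0.13, beside −0.01 over all tested genes. Clec4e was the one gene of the set with no overlap, higher in all 3 KO_no_tumor livers, as were 3.56% of tested genes, and 0 lay wholly lower, as did 4.37%. With limma 0 of 8 passed, beside 0.00575% of all genes (Mtdh alone), and 1 of 8 was under an unadjusted p of 0.05, beside 1.93% of all genes. For the difference between the genotypes in their tumour response, all 10 estimates were negative with a median of −3.66, or −1.88 with a pseudocount of 10, beside −0.09 over all tested genes. No gene passed limma's threshold for that interaction (0%), while 2 of the 8 and 4.7% of all genes were under an unadjusted p of 0.05.

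Livers of a group differed from each other. The summed signal of the 10 genes was 180 (KO_tumor replicate 1), 115 (replicate 2) and 680 (replicate 3) in KO_tumor livers, 1597, 1098 and 1038 in WT_tumor livers, 144, 134 and 149.9 in KO_no_tumor livers, and 114, 62.1 and 206 in WT_no_tumor livers. KO_tumor replicate 3 was the highest KO_tumor liver for 9 of the 10 genes, Mmp9 being the exception, and had all 10 above 0. KO_tumor replicate 1 had 7 of 10 at 0 and KO_tumor replicate 2 had 3. Most of the KO_tumor replicate 3 sum came from Prtn3 and Csf3r. Among WT_tumor livers replicate 1 was highest for 7 genes and replicate 2 for Ngp, Chil3 and Ltf. A signal of at least 10 in all 3 libraries of a group was reached by 2 genes in KO_tumor (Mmp9 and Csf3r), 7 in WT_tumor, 2 in KO_no_tumor (Clec4e and Csf3r) and 1 in WT_no_tumor livers (Csf3r).

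**Figure D3:**
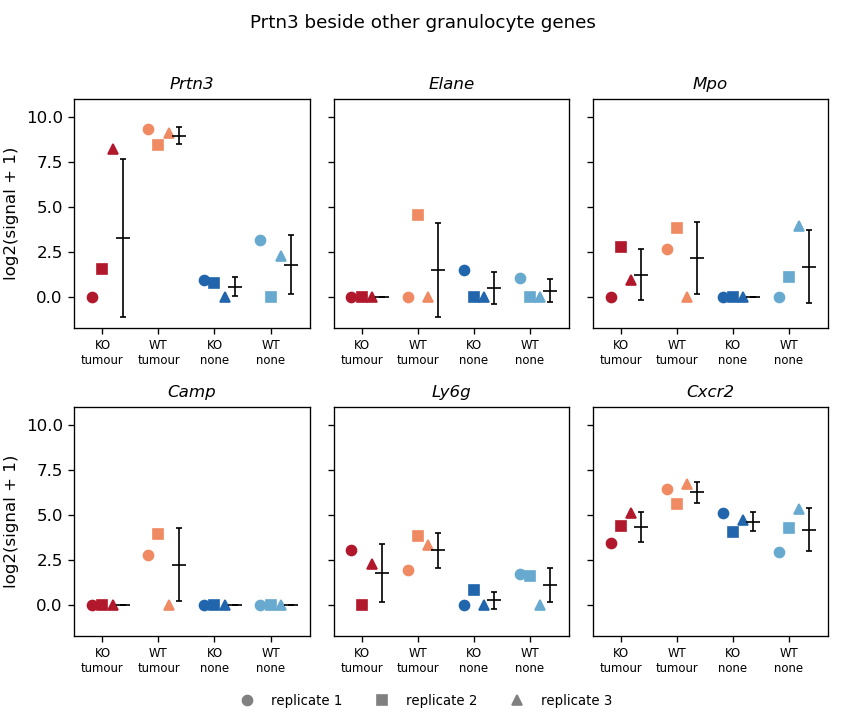
Prtn3 beside other granulocyte genes (Elane, Mpo, Camp, Ly6g and Cxcr2) as log2(signal + 1) on the vertical axis, by group, with 1 point per library and the mean ± SD of 3 libraries. Prtn3 reaches a signal of 644 in WT_tumor livers, while Elane, Mpo, Camp and Ly6g stay at or under 22.3 in every library.

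The name of the set was checked against other markers of the granulocyte lineage, and Elane, Mpo, Camp and Ly6g were nearly absent. Elane, which encodes neutrophil elastase and lies 3072 bases from Prtn3, was at 0 in all KO_tumor livers and at 0, 22.3 and 0 in WT_tumor livers. Mpo, encoding myeloperoxidase of the same primary granules, did not exceed 5.85 in KO_tumor, 13.4 in WT_tumor, 0 in KO_no_tumor and 14.2 in WT_no_tumor livers. Camp, encoding the secondary granule peptide cathelicidin, was at 0 in every liver except WT_tumor replicates 1 and 2, at 5.76 and 14.4. Ly6g, the surface antigen commonly used to identify mouse neutrophils, was 7.40, 0 and 3.85 in KO_tumor livers, 2.88, 13.0 and 8.85 in WT_tumor livers, 0, 0.752 and 0 in KO_no_tumor livers, and 2.26, 2.10 and 0 in WT_no_tumor livers. High Prtn3 therefore stood without matching Elane, Mpo or Camp signal in WT_tumor replicates 1 and 3 and in KO_tumor replicate 3. The highest value of Elane, Camp and Ly6g was in WT_tumor replicate 2, and that of Mpo in WT_no_tumor replicate 3. Cxcr2 and Mmp8, listed below, also had their highest value in a WT_tumor liver. At such low signal these 4 markers do not back a cell-type name for the set. Its genes are therefore called by symbol or as the 10 genes. Ctsg, the remaining classic primary granule protease, was sought by symbol and was not found among the genes with values.

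Of a longer list of neutrophil genes outside the set, 11 of 20 in the table passed the filter, and 0 of these 11 passed limma's threshold in any comparison. In WT livers all 11 were positive with tumour, with a median of 1.04, while in KO livers 5 of 11 were positive with a median of −0.05. Between genotypes with a tumour 4 of 11 were positive, with a median of −0.61. In that comparison Wfdc21, 1 of these 4 genes, encoding a small secreted protein, ran opposite to the 10 genes. With tumour in WT livers it ran the same way as they did. Its signal was 5099, 2078 and 3827 in KO_tumor livers and 1835, 2017 and 2001 in WT_tumor livers. Without a tumour it was 1374, 1538 and 2443 in KO and 932, 815 and 1267 in WT livers. The KO_tumor livers lay above the WT_tumor livers without overlap, as did those of 8.11% of tested genes, a difference of 0.82 ± 0.30 (SE, log2; limma adjusted p = 0.263). Without a tumour the KO livers also lay above the WT livers without overlap, as did those of 3.56% of tested genes. Cxcr2, the receptor for neutrophil chemokines, had a signal of 9.86, 20.1 and 33.3 in KO_tumor livers, 84.6, 47.9 and 104 in WT_tumor livers, between 15.6 and 33.8 in KO_no_tumor livers, and 6.77, 18.0 and 39.1 in WT_no_tumor livers. Its WT_tumor livers lay above all others, with a tumour difference in WT livers of 2.07 ± 0.82 (SE, log2; limma adjusted p = 0.45). Mmp8, neutrophil collagenase of secondary granules, was 0, 0 and 0.769 in KO_tumor livers, 31.0, 34.6 and 28.8 in WT_tumor livers, 32.1, 6.77 and 0 in KO_no_tumor livers, and 0, 0 and 8.52 in WT_no_tumor livers. KO_no_tumor replicate 1 thus fell within the WT_tumor range of Mmp8, whose tumour difference in WT livers was 3.93 ± 1.36 (SE, log2; limma adjusted p = 0.329).

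Among listed granulopoiesis genes 2 of 8 tested (Stat3 and Socs3) passed with tumour in WT livers, as did 2 of 9 tested neutrophil recruitment genes. The share over all genes was 0.679%. In WT livers 7 of the 8 and 8 of the 9 were positive with tumour. In KO livers 8 of 8 and 7 of 9 were positive, and 0 passed. Cebpa, a gene of the granulopoiesis list encoding a C/EBP protein, was lower in WT_tumor than in WT_no_tumor livers without overlap, as were 8.05% of tested genes. Its signal was 1756, 1949 and 1652 in WT_tumor and 3141, 3421 and 2141 in WT_no_tumor livers. In KO livers, where the groups overlapped, it was 6830, 2920 and 3693 with a tumour and 3218, 2519 and 3344 without one. Cxcl1, a chemokine for neutrophils, had a signal of 138, 74.1 and 568 in KO_tumor livers, 1210, 938 and 891 in WT_tumor livers, 42.5, 14.3 and 108 in KO_no_tumor livers, and 47.4, 149 and 36.0 in WT_no_tumor livers. It rose by 3.96 ± 0.79 (SE, log2; limma adjusted p = 0.037) with tumour in WT livers. Selp, encoding P-selectin, on which leukocytes roll, had a signal of 101, 17.6 and 91.5 in KO_tumor livers, 317, 212 and 395 in WT_tumor livers, 25.5, 13.5 and 11.8 in KO_no_tumor livers, and 26.0, 6.31 and 19.9 in WT_no_tumor livers. It rose by 4.22 ± 0.79 (limma adjusted p = 0.0272) with tumour in WT livers. Stat3 and Socs3, a transcription factor and an inhibitor of cytokine signalling, rose by 1.17 ± 0.21 (limma adjusted p = 0.0231) and by 2.69 ± 0.39 (0.00814) in the same comparison. There 7 of 10 tested acute-phase genes of hepatocytes also passed. Which cells of whole liver gave the Stat3, Socs3 and Cebpa signal was not tested. Csf3, the gene of G-CSF itself, was sought by symbol and was not found among the genes with values.

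Lcn2, encoding lipocalin 2 of secondary granules, was the one granule gene outside the set that passed, rising by 5.67 ± 0.98 (SE, log2; limma adjusted p = 0.0184) with tumour in WT livers. Its signal was 648, 139.8 and 1531 in KO_tumor livers, 7220 (WT_tumor replicate 1), 1252 and 4572 in WT_tumor livers, 77.5, 97.8 and 642 in KO_no_tumor livers, and 48.5, 29.4 and 206 in WT_no_tumor livers. Hepatocytes also make Lcn2 in inflammation, and of 10 tested acute-phase genes of hepatocytes, a list that also holds Lcn2, 7 rose with tumour in WT livers, Lcn2 among them. The others named by the smallest p were Steap4, which rose by 1.97 ± 0.22 (adjusted p = 0.00157), Lrg1 by 3.18 ± 0.43 (0.00499), Orm2 by 4.65 ± 0.73 (0.0116) and Saa1 by 6.03 ± 1.02 (0.0179, limma). The median of these 10 was 2.58 in WT and 0.97 in KO livers with tumour, and 0 of 10 passed in KO livers or for the interaction. The part of the acute-phase response in the values of the 10 genes was not tested.

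Among markers of other blood cells few passed the test, though most had a positive tumour difference in WT livers. Of 11 tested monocyte and macrophage genes, 1 passed with tumour in WT livers. This was Ccr2, a chemokine receptor of monocytes, which rose by 1.78 ± 0.37 (SE, log2; limma adjusted p = 0.0448). Of the 11, 10 were positive with tumour in WT and 7 in KO livers, and the list's median was 0.73 in WT and 0.07 in KO livers. The summed signal of these 11 ranged from 7785 to 10239 in KO_tumor, 10139 to 14781 in WT_tumor, 5806 to 10721 in KO_no_tumor and 5583 to 13798 in WT_no_tumor livers, with 0 genes at 0 throughout a group. Lyz2, lysozyme of monocytes, macrophages and neutrophils alike, reached 4239, 3364 and 4032 in KO_tumor livers and 6889, 8469 and 4532 in WT_tumor livers, against 2597, 4229 and 5063 in KO_no_tumor livers and 2730, 2522 and 8449 in WT_no_tumor livers. The 6 Kupffer cell genes summed to 4611 to 6828 in KO_tumor, 4872 to 6852 in WT_tumor, 3414 to 6631 in KO_no_tumor and 2876 to 5936 in WT_no_tumor livers, and 0 passed.

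Of 10 tested erythroid genes 1 passed with tumour in WT livers, Alas2, the first enzyme of haem synthesis in red cell precursors. It rose by 1.60 ± 0.33 (SE, log2; limma adjusted p = 0.0422). All 10 were positive in that comparison, with a median of 1.62, and 4 of 10 in KO livers, with a median of −0.07. Between genotypes with a tumour 1 of 10 was positive, with a median of −1.28. The 13 erythroid genes in the table summed to between 3904 and 12851 in KO_tumor, 7493 and 15740 in WT_tumor, 3991 and 6426 in KO_no_tumor and 3353 and 6782 in WT_no_tumor livers. The 5 platelet genes summed to between 2.47 and 149 in KO_tumor, 216 and 292 in WT_tumor, 38.4 and 134 in KO_no_tumor and 48.4 and 61.5 in WT_no_tumor livers, so that every WT_tumor liver exceeded every other liver. Of the 3 platelet genes tested 0 passed limma's threshold in WT livers with tumour, where their median was 2.93. In the same comparison limma called 0 of 8 T and NK cell genes, 0 of 6 B and plasma cell genes, 0 of 7 proliferation genes, 0 of 7 hepatocyte identity genes, 0 of 8 mammary epithelial genes, 0 of 3 primary granule genes and 0 of 1 tested genes of eosinophils, basophils and mast cells. Positive there were 6 of the 8 T and NK cell genes, 6 of the 6 B and plasma cell genes and 5 of the 7 proliferation genes. The same held for 4 of the 7 hepatocyte identity genes and 5 of the 8 mammary epithelial genes. The part of blood content or of other myeloid cells in the values of the 10 genes was not tested. In KO livers, between genotypes with a tumour and without one, 0 genes of any of these lists passed.

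**Figure D4:**
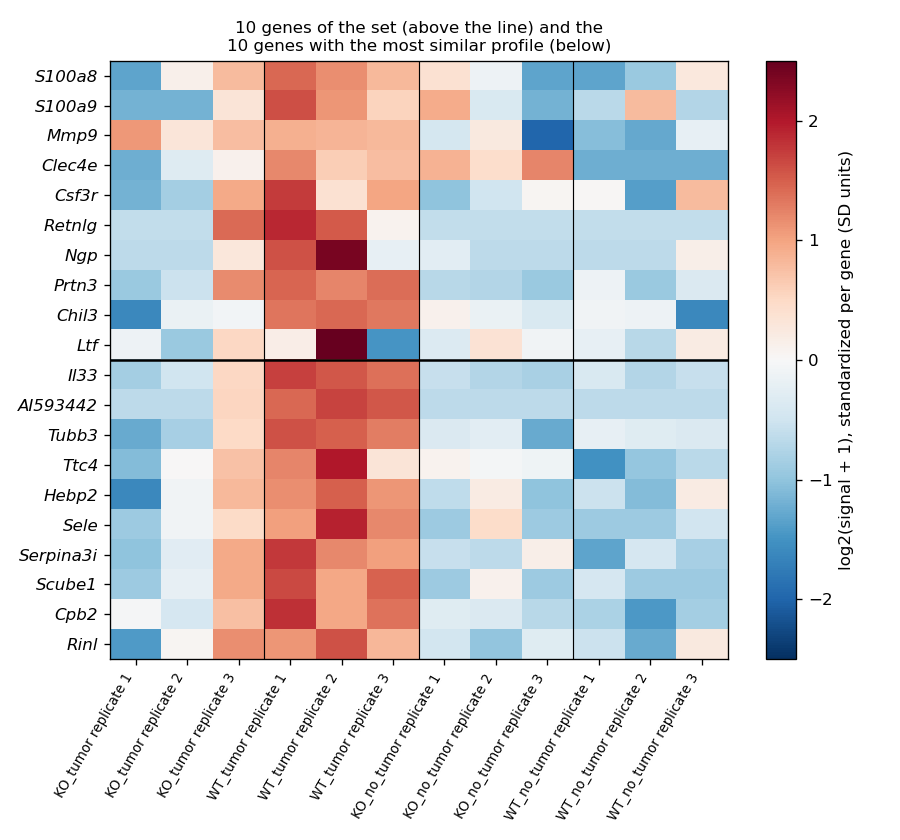
Standardized log2(signal + 1) of the 10 genes of the set (above the line) and of the 10 genes most like them (below it) in each of 12 libraries, as a colour scale of SD units from each gene's mean, with groups in columns. WT_tumor columns are the highest for most genes, and KO_tumor replicate 3 lies nearer to them than KO_tumor replicates 1 and 2 do.

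Across the 12 libraries, likeness to the set was measured as Pearson's r with the mean standardized log2 value of the 10 genes. These libraries fall into 4 groups and share that structure, so r describes the pattern and nothing more. Among named genes outside the set the closest were Il33 (r = 0.941), AI593442 (0.925), Tubb3 (0.923), Ttc4 (0.909), Hebp2 (0.898), Sele (0.889), Serpina3i (0.888), Scube1 (0.883), Cpb2 (0.882) and Rinl (0.878). Il33, an alarmin cytokine, had a signal of 71.5, 95.6 and 219 in KO_tumor livers, 572, 498 and 434 in WT_tumor livers, 89.8, 79.0 and 73.7 in KO_no_tumor livers, and 105, 78.8 and 89.9 in WT_no_tumor livers. KO_tumor replicate 3 again lay between the other KO_tumor livers and the WT_tumor livers. As these genes were picked for a pattern highest in WT_tumor livers, no test of their tumour difference is given. Sele, encoding the endothelial adhesion molecule E-selectin, was 0, 2.60 and 7.69 in KO_tumor livers and 20.2, 85.7 and 26.6 in WT_tumor livers, and at most 7.52 in livers without a tumour.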

How the data were processed

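Bulk RNA sequencing of 12 mouse livers was analysed. Per the labels' protocols, frozen liver powder was extracted, depleted of ribosomal RNA and made into libraries. The authors deposited a normalized signal per gene and library, not on a log scale. STAR 2.7.8a, Partek, DESeq2 and build mm39 are named in the submitters' processing notes. How reads were counted, with which annotation release and whether by strand, is not stated there.

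The value of 1 read was taken as the most frequent value above 0 in each library. Depending on the library, 78.0% to 84.9% of low values (20 reads or fewer) came out as whole reads, with a tolerance of 0.01 reads, too few for a count model. Genes with a signal of at least 10 in at least 3 libraries (17380) were tested on log2(signal + 1) with limma 3.58.1 in R 4.3.3 (eBayes with trend), in 1 fit of 12 libraries with a mean per group and no covariate. Two-sided p-values were adjusted over all tested genes (Benjamini-Hochberg), and 0.05 was the threshold. The steps were tested on simulated data. Estimated reads and limits at 0 cover counting error only. Standard errors of the 10 genes come from that fit.

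The 10 genes, the 16 gene lists and the tests were chosen with earlier results of these data known. Of 164 listed symbols 146 were found. Genes named outside the 10 are a set of granulocyte and inflammation genes, up to 4 called genes per list by smallest p, and the 10 genes most alike without unnamed gene models. Mmp8, Wfdc21, Cebpa, Alb, Itga2b, Ighm and Jchain were singled out after their values were seen. Alternatives were another pseudocount, no filter, rescaling to the same total, quantile normalization, each pair of groups fitted alone, a replicate block, leaving out each library and leaving out both libraries that stood apart. Promoter motifs were searched on both strands.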

Additional observations from a re-analysis of the deposited data

Results flagged for a closer look

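Clec4e had opposite tumour differences in the genotypes. All 3 KO_tumor livers (0, 3.25 and 7.69) lay below all 3 KO_no_tumor livers (28.4, 13.5 and 51.3), and all 3 WT_tumor livers (49.7, 18.7 and 24.4) lay above the WT_no_tumor livers, all listed at 0. The interaction on the log2(signal + 1) scale was −7.96 ± 1.52 (SE), a value that depends on the pseudocount because a group is at 0. It did not pass limma's threshold over all genes, and no other gene passed it either. Clec4e belongs to a set chosen for its differences, so the interaction is a description.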

How the results depend on the processing

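The direction of the median difference of the 10 genes held in WT livers with tumour, between genotypes with a tumour and for the interaction under every alternative run. With a pseudocount of 10 these medians were 2.03 in WT livers with tumour, −1.62 between genotypes with a tumour and −1.88 for the interaction. The number of genes passing between genotypes with a tumour, 4 as reported, was 17 with a pseudocount of 10, 16 with no filter, 9 with quantile normalization, 13 with a replicate block, 9 without both libraries that stood apart and 0 with the 6 libraries fitted alone. In WT livers with tumour, 118 as reported, it was 211 without both libraries, and in KO livers with tumour it was 1 with the 6 libraries fitted alone, against 0. The cause was not tested.

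Leaving out 1 library at a time gave 11 (without WT_tumor replicate 3) to 208 (without KO_tumor replicate 1) genes in WT livers with tumour, with 16 to 67 when any 1 WT_no_tumor replicate was left out and 20 without WT_tumor replicate 1. It gave 0 to 1 in KO livers with tumour, 2 (without WT_tumor replicate 3) to 211 (without WT_tumor replicate 2) between genotypes with a tumour, with 7 to 9 without KO_tumor replicate 1, KO_tumor replicate 3 or WT_no_tumor replicate 2, 0 to 1 without a tumour and 0 to 1 for the interaction. Medians of the 10 genes ranged from 3.75 to 4.88 in WT livers with tumour, −0.62 to 0.70 in KO livers with tumour, −4.44 to −2.06 between genotypes with a tumour, −0.04 to 0.67 without a tumour and −4.58 to −2.74 for the interaction. Counts of the 10 that passed are a description, since they were chosen from these contrasts. In WT livers with tumour 2 (Prtn3 and Chil3) passed with a pseudocount of 10, beside 0.863% of all genes, 3 (with Clec4e) with quantile normalization (0.725%) or without KO_tumor replicate 1 (1.2%), 3 (with Mmp9) with the 6 libraries fitted alone (0.961%), 1 (Prtn3) without KO_tumor replicate 3 (0.552%) and 5 (S100a8, Mmp9, Clec4e, Prtn3 and Chil3) without both libraries that stood apart (1.23%). Between genotypes with a tumour 1 (Chil3) passed with a pseudocount of 10 (0.0978%) and 1 (Prtn3) without KO_tumor replicate 3 (0.0465%). Under the other alternatives none of the 10 passed.

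Replicate numbers of the sample titles are shared by the groups, but deviations of same-numbered libraries correlated between −0.094 and 0.0998 (18 pairs). Those of differently numbered libraries correlated between −0.103 and 0.146 (36 pairs), so the title numbers gave no sign of pairing. The submitters' own names number KO_no_tumor replicates 2 and 3 as 3 and 4, and the other groups alike under both. By those names KO_no_tumor replicate 2 shares a number with replicate 3 of the other groups. Its r with replicate 3 was 0.067 in KO_tumor, −0.031 in WT_tumor and 0.146 in WT_no_tumor, the last being the highest of all pairs. No fit was run with those names. With a replicate block by title number 89 genes passed in WT livers with tumour and 13 between genotypes with a tumour. Depth limits most of these genes: in KO_tumor replicate 1 a listed 0 allows a signal of up to 7.40.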

Other observations

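In WT_tumor replicate 2, the liver with the highest Ngp, Ltf and Camp signal, Ighm was 1650 and Jchain 1640, genes of immunoglobulin-secreting cells, against at most 669 and 386 in the other libraries. Itga2b, a platelet integrin subunit, was 0, 26.0 and 118 in KO_tumor livers and 102, 109 and 173 in WT_tumor livers, and lay below the WT_tumor range in all 6 livers without a tumour. KO_tumor replicate 3 lay within the WT_tumor range of Itga2b and the other KO_tumor livers did not.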
